A study of Mus musculus with 4 samples.

Results

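The nuclear genes of oxidative phosphorylation were followed in haematopoietic stem and progenitor cells of the mouse fetal liver. The embryos carried floxed Bclaf1 alleles, with or without Vav-Cre. Members were all genes whose symbol starts with Nduf followed by a, b, c, s or v and a digit, with Cox and a digit between 4 and 8 followed by a, b or c, with Uqcr or with Atp5, together with Sdha, Sdhb, Sdhc and Sdhd. This rule took 83 of the 32285 genes in the files, by name alone: 38 for complex I, 4 for complex II, 8 for complex III, 16 for complex IV and 17 for complex V. It leaves out a few subunits with other names, such as Cox4i1, Ndufab1, Cyc1 and the electron carrier Cycs. It places Ndufa4 under complex I by its name, although the protein is known as a subunit of complex IV, and Cox7a2l under complex IV, although the protein is known for joining complexes III and IV into supercomplexes. The 13 protein genes of the mitochondrial genome (mt- genes) were set beside them.

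The respiratory chain sits in the inner mitochondrial membrane. Complexes I and II take electrons from NADH and succinate, complex III passes them to cytochrome c, and complex IV hands them to oxygen. The proton gradient built by complexes I, III and IV drives complex V, the ATP synthase. Complex II is encoded wholly in the nucleus, while the other complexes combine nuclear subunits with core subunits made inside the mitochondrion, so that both genomes have to supply their parts. Adult haematopoietic stem cells are known to rely less on respiration than cycling progenitors, and erythroid precursors to need many mitochondria for haem synthesis.

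The KO library came from Vav-Cre:Bclaf1f/f embryos and the WT library from Bclaf1f/f embryos. The floxed Bclaf1 allele was thus carried by both groups, and the difference was Cre driven by the Vav promoter, which is active in blood cells. Each genotype was 1 pool of livers from 10 embryos at E17.5, from which LSK cells (lineage marker negative, Sca1+, c-Kit+) were sorted, stained with 6 barcoded antibodies and captured as 1 library for RNA and antibody tags. BCLAF1 is known as an RNA-associated nuclear factor. With 1 library per genotype there is no replicate check: no test was possible, and intervals cover counting error only.

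Bclaf1 (chr10:20310512-20342644, GRCm38) stood at 75.8 counts per 1000000 gene UMIs (CPM; UMIs are unique molecular identifiers, which count captured RNA molecules) in KO cells and at 218 CPM in WT cells, or 34.8% of WT. Cells numbered 2676 in KO, with 104358292 gene UMIs in total and 34187.5 in the median cell, and 5345 in WT, with 141419013 in total and 22734 in the median cell. KO cells thus had more UMIs per cell, and 5 cell barcodes occurred in both libraries. The sorted identity was checked with Kit, which had a UMI in 97.0% of KO cells and 95.2% of WT cells, and with the Sca1 antibody tag, which had a median of 176 tag UMIs in KO cells and 155 in WT cells. The Sca1 transcript Ly6a was sparser, with a UMI in 21.1% of KO cells and 21.8% of WT cells. Markers of macrophages summed to 3.1 CPM in KO and 2.2 CPM in WT, and those of hepatocytes to 13.1 CPM in KO and 9.4 CPM in WT.

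Promoter sequences are shown as examples for Atp5g1 and Atp5g2, for Cox6b2 and Cox6b1, and for Sdhd and Uqcr11. Of the 83 members, 69 had a promoter in the RefSeq table (GRCm38.p6), taken as 250 bases before to 50 bases after the gene's start. The window was searched on both strands for GCGCA followed by any base and GCGC, the motif of nuclear respiratory factor 1 (NRF1), and for CCGGAAG, the motif of ETS factors such as GABP. Each motif was found in 17 member promoters (24.6%), against 1402 of 27025 promoters of all genes (5.19%) for the NRF1 motif and 2683 (9.93%) for the ETS motif. Either motif stood in 30 member promoters (43.5%), against 3782 of all genes (14.0%), 4 member promoters held both, and no NRF1 match overlapped an ETS match. A match is a description of letters and not of binding. The following stretches are the 100 bases just before the start, in the direction of transcription, all from the minus strand. NRF1 and ETS matches are in capitals. They are not a fair sample of the members: Sdhd is among the 4 member promoters that held both motifs. The same 100 bases of Ndufa4, Cox7a2l, Ndufa13 and Atp5g3, not shown, held no match. Atp5g1 (chr11:96075632-96075731) and Atp5g2 (chr15:102671048-102671147) encode the same ring subunit of complex V, Cox6b2 (chr7:4753095-4753194) and Cox6b1 (chr7:30626115-30626214) alternative forms of a complex IV subunit, and Sdhd (chr9:50603850-50603949) and Uqcr11 (chr10:80406822-80406921) small subunits of complexes II and III.
Atp5g1: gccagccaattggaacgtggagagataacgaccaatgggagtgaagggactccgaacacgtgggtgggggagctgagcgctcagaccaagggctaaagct
Atp5g2: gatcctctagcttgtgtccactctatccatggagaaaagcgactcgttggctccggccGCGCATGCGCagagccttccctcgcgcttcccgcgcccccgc
Cox6b2: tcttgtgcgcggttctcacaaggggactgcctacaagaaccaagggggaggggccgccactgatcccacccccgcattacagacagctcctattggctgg
Cox6b1: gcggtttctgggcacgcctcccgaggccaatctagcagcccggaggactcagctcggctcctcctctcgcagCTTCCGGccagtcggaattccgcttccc
Sdhd: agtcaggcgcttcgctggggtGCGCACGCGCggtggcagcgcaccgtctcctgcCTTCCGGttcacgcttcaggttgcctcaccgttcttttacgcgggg
Uqcr11: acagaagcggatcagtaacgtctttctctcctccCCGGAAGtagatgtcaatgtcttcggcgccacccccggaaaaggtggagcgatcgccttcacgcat

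Over all LSK cells the nuclear genes made up nearly the same share of RNA in both genotypes. Their summed level was 27511 CPM in KO and 27805 CPM in WT, a log2 ratio of -0.015 (95% counting interval -0.018 to -0.013). The mt- genes summed to 41259 CPM in KO and 39731 CPM in WT, a log2 ratio of 0.054 (0.053 to 0.056). Of the 83 members, 79 passed the filter of 5 CPM on average; Cox7a1 stood at 2.22 CPM in KO and 3.13 CPM in WT, and Cox7b2, Cox8b and Cox8c had between 0 and 3 UMIs per library. Among the 79, 32 were higher and 47 lower in KO, with a median log2 ratio of -0.018, whereas 65.0% of the 9229 genes past the filter were higher, with a median of 0.067. With scaling by the median of all genes in place of total UMIs, 21.5% of members instead of 40.5% were higher in KO. At least 10% higher were 7 members (33.0% of all genes) and at least 10% lower were 4 (12.5% of all genes). At least 25% higher were 2 members (7.47% of all genes), and none was at least 20% lower (2.57% of all genes). The shares of members outside 10% of WT were thus below those of all genes in both directions, but for the lower side this turned with the treatment: with scaling by the median, 21 members (26.6%) and 21.8% of all genes were at least 10% lower.

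Cells of a narrower depth range gave a different balance. Among cells with 20000 to 40000 gene UMIs the nuclear sum was lower in KO by a log2 ratio of -0.178, the mt- sum higher by 0.104, and 51 of 78 members were at least 10% lower (15.9% of all genes). In no lineage gate, as defined below, the corresponding nuclear value was -0.073 and 14 of 77 members were at least 10% lower (9.11% of all genes). Within this range WT cells were still the shallower: 650 KO cells and 1676 WT cells had 20000 to 30000 UMIs, and 548 KO cells and 843 WT cells had 30000 to 40000. Both restrictions were chosen after seeing the data.

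**Figure D1:**
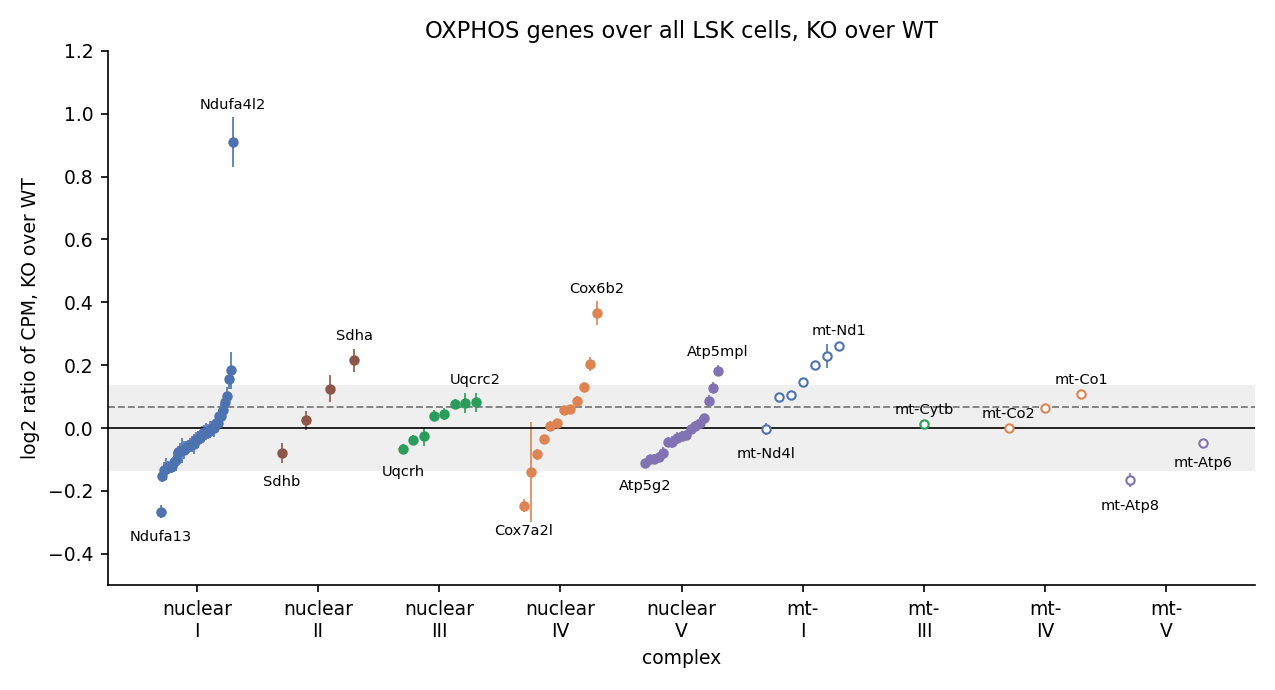
Log2 ratio of CPM in KO over WT for each member past the filter, by complex (filled points, nuclear; open points, mt- genes), with 95% counting intervals; the grey band marks ratios within 10% and the dashed line the median of all genes, 0.067. Most nuclear members lie inside the band, with Ndufa4l2 at 0.91 and Ndufa13 at -0.27 at the ends, and mt-Nd1 at 0.26 is the highest of the mt- genes.

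Complex I summed to 8788 CPM in KO and 9083 CPM in WT, a log2 ratio of -0.048, with 10 of 38 members higher and 28 lower. The member farthest above WT was Ndufa4l2 (chr10:127509274-127517154, GRCm38), a paralogue of Ndufa4 known as a gene induced by low oxygen, at 30.4 CPM in KO and 16.2 CPM in WT, a log2 ratio of 0.91 (0.83 to 0.99). It is taken up below, since 93.5% of its KO UMIs and 90.8% of its WT UMIs lay in cells with erythroid markers, and with KO gates weighted to their WT shares its ratio was -0.079. Ndufs1, a core subunit that carries iron-sulfur clusters, had 40.9 CPM in KO and 36.0 CPM in WT (log2 ratio 0.18, and -0.016 in cells with 20000 to 40000 UMIs). Ndufa13 (chr8:69894163-69902558), an accessory subunit also known as GRIM-19, was at 295 CPM in KO and 354 CPM in WT, a log2 ratio of -0.27 (-0.29 to -0.24). Ndufb8, an accessory subunit of the membrane arm, had 297 CPM in KO and 330 CPM in WT (log2 ratio -0.15). Other nuclear core subunits, which hold the flavin and iron-sulfur centres that carry the electrons and were looked up after their values were seen, lay on the lower side: Ndufs3 at -0.13, Ndufs8 at -0.11, Ndufv1 at -0.071, Ndufs7 at -0.036 and Ndufv2 at -0.012. The most abundant members by UMIs, Ndufa4 and Ndufb1-ps, had log2 ratios of -0.12 and 0.059. Ndufb1-ps is named as a pseudogene in the files but is the Ndufb1 gene in RefSeq.

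Complex II, succinate dehydrogenase, summed to 468 CPM in KO and 452 CPM in WT, a log2 ratio of 0.049, or -0.018 against the median of all genes. Its catalytic flavoprotein Sdha was at 101 CPM in KO and 87.4 CPM in WT, a log2 ratio of 0.22 (0.18 to 0.25). The iron-sulfur subunit Sdhb stood on the other side of WT, at 133 CPM in KO and 140 CPM in WT (log2 ratio -0.079). The membrane anchors Sdhc and Sdhd had log2 ratios of 0.13 and 0.025. Over all cells, Sdha stayed between 0.15 and 0.35 and Sdhb between -0.30 and -0.060 under all 12 alternative treatments of the data. Single gates, defined below, could turn these signs. Sdhb was at 0.22 in CD150+CD48- cells, and in mast or basophil-marker cells Sdhb was at 0.047 and Sdha at -0.21.

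Complex III summed to 2862 CPM in KO and 2843 CPM in WT, a log2 ratio of 0.010, or -0.057 against the median of all genes, and none of its 8 members lay outside 10% of WT. Uqcrc2, a core subunit, and Uqcrfs1, the Rieske iron-sulfur protein, were the highest relative to WT, with log2 ratios of 0.082 and 0.079. Uqcrh, the hinge protein, and Uqcrb were the lowest, with -0.066 and -0.038.

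Complex IV summed to 6379 CPM in KO and 6275 CPM in WT, a log2 ratio of 0.024, or -0.043 against the median of all genes. Its second-form subunit gene Cox6b2, known from testis, was at 110 CPM in KO and 85.7 CPM in WT, a log2 ratio of 0.37 (0.33 to 0.40). Under the 12 alternative treatments of the data its ratio lay between 0.13 and 0.37. By the lineage gates defined below it was -0.064 in erythroid-marker cells, where Cox6b2 had its highest level. It was 0.017 in megakaryocyte-marker cells, 0.20 in no gate and positive in the other gates. Cox6a1, the widely expressed form of another small subunit, had 298 CPM in KO and 259 CPM in WT (log2 ratio 0.20), while in cells with 20000 to 40000 UMIs its ratio was -0.084. Cox7a2l was at 301 CPM in KO and 358 CPM in WT, a log2 ratio of -0.25 (-0.27 to -0.23), and at 0.097 in cells with 20000 to 40000 UMIs. The abundant subunits Cox7c and Cox8a stood close to WT, with log2 ratios of -0.034 and 0.016.

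Complex V summed to 9014 CPM in KO and 9154 CPM in WT, a log2 ratio of -0.022, with 6 of 17 members higher and 11 lower. Atp5mpl, a small membrane subunit, had 406 CPM in KO and 358 CPM in WT (log2 ratio 0.18), and the catalytic alpha subunit Atp5a1 had 469 CPM in KO and 429 CPM in WT (log2 ratio 0.13). The abundant members Atp5e, the epsilon subunit, and Atp5g2 were lower, with log2 ratios of -0.099 and -0.11. Atp5b, the catalytic beta subunit that pairs with alpha, is outside the members chosen for naming. Over all cells it was level, at 670 CPM in KO and 672 CPM in WT. Within each of the lineage gates defined below it was lower in KO, with log2 ratios from -0.12 in no gate to -0.012 in lymphoid-marker cells. Over all cells the sum of complex II kept its sign in 8 of the 12 alternative treatments, that of complex III in 3 and that of complex IV in 5, whereas the sums of complexes I and V stayed negative in all 12. Many members have processed pseudogenes of nearly the same sequence, and how reads shared with them were counted is not given in the sources used here, so absolute levels of single members carry that limit.

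Of the 13 mt- genes, 10 were higher and 3 lower in KO, where 65.0% of all genes were higher. The genes for complex I subunits stood highest relative to WT as a group, at 9047 CPM in KO and 8136 CPM in WT, a log2 ratio of 0.15, or 0.086 against the median of all genes. Under the 12 alternative treatments of the data this group's ratio lay between 0.0060 and 0.15. mt-Nd1 was at 2306 CPM in KO and 1923 CPM in WT (log2 ratio 0.26), and mt-Nd3 and mt-Nd6 had ratios of 0.20 and 0.23. The complex V genes mt-Atp8 and mt-Atp6 went the other way, with mt-Atp8 at 252 CPM in KO and 283 CPM in WT (log2 ratio -0.17). The far more abundant mt-Atp6 was nearer to WT, at -0.047, and the sum of both was at -0.051. The direction of the mt- sum depended on the treatment of the data: it was -0.012 with scaling by the median of all genes and -0.078 after subtracting 10% free RNA. Droplets with 10 to 100 UMIs, which hold free RNA, had 76972 CPM of mt- genes in KO and 42681 CPM in WT, and the part of this RNA in the cells' own values was not tested beyond that subtraction.

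Cells were then grouped by lineage markers. A cell was put in the lineage gate of its highest marker score when that score lay at least 1.5 SD above the mean of all cells and at least 3 markers of the list had a UMI. A gate is a range of a score and not a cell type, and no oxidative phosphorylation gene was used. Cells with erythroid markers numbered 309 in KO and 244 in WT, and 1801 KO cells and 4266 WT cells were in no gate. In erythroid-marker cells the nuclear genes summed to 33857 CPM, against 25538 CPM in cells of no gate, in the KO library (log2 ratio 0.41), and to 35754 CPM, against 26861 CPM, in the WT library (log2 ratio 0.41). Of 78 members past the filter in both libraries, 71 were higher in both (37.1% of all genes) and 67 at least 10% higher in both (28.7% of all genes). Erythroid-marker cells were also the deepest, with medians of 71515 UMIs in KO and 55321 in WT, against 30857 in KO and 22007.5 in WT in no gate. Among cells with 20000 to 40000 UMIs the log2 ratio was 0.28 in KO and 0.23 in WT. Haemoglobin transcripts, which mark later red cells and free RNA, were not higher in these cells, at 188 CPM in KO and 224 CPM in WT, against 767 CPM in KO and 870 CPM in WT in no gate. Marker transcripts of the erythroid list, such as Klf1, Gata1 and Car2, summed to 2449 CPM in KO and 2646 CPM in WT in the gate.

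All complexes took part, complexes II and III most. In erythroid-marker cells over cells of no gate, complex II had log2 ratios of 0.55 in KO and 0.61 in WT, and complex III 0.55 in KO and 0.57 in WT. Complex IV had 0.43 in KO and 0.45 in WT, complex V 0.39 in both, and complex I 0.35 in both. Apart from Ndufa4l2, the members with the highest ratios were Cox6b2 (1.45 in KO, 1.72 in WT), the ring subunit Atp5g1 (1.07 in KO, 1.05 in WT) and Uqcr11 (1.01 in KO, 1.07 in WT). Atp5g1 reached 1108 CPM in KO erythroid-marker cells and 526 CPM in KO cells of no gate, and 1225 CPM and 590 CPM in the same WT cells. A few members ran against the rest. Cox7a2l, the supercomplex factor, was lower in erythroid-marker cells (log2 ratio -0.63 in KO, -0.69 in WT), as were Ndufa4 (-0.33 in KO, -0.34 in WT) and Atp5g2 (-0.14 in KO, -0.15 in WT).

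**Figure D2:**
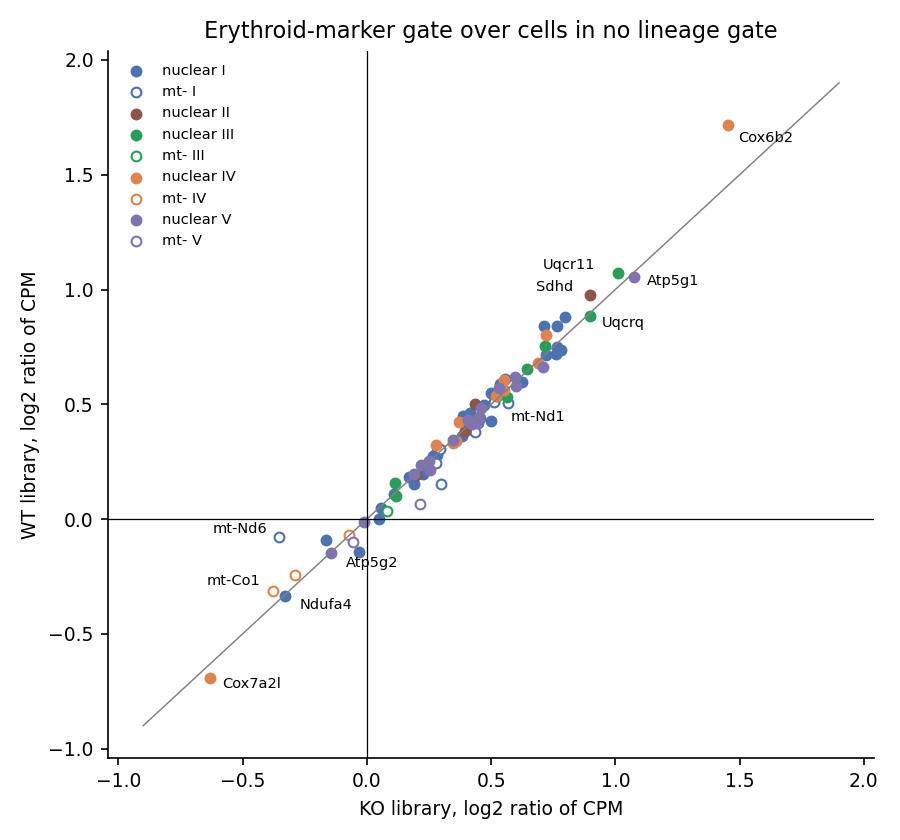
Log2 ratio of CPM in erythroid-marker cells over cells of no lineage gate for each member, in the KO library (x axis) and the WT library (y axis), coloured by complex (filled points, nuclear; open points, mt- genes), with the diagonal drawn; Ndufa4l2, at 5.91 in KO and 6.29 in WT, is off the scale and left out. Points lie along the diagonal, with Cox6b2 (1.45, 1.72) and Atp5g1 (1.07, 1.05) at the upper end and Cox7a2l (-0.63, -0.69) at the lower end.

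Medians by promoter motif lay close together in this contrast. The median log2 ratio of members with the NRF1 motif was 0.50 in KO and 0.43 in WT (17 members), and of those without it 0.43 in both (49 members). With the ETS motif the medians were 0.44 in KO and 0.45 in WT, and without it 0.44 in KO and 0.43 in WT. Atp5g1 and Cox6b2, among the highest, had neither motif in the window, and their partners Atp5g2 and Cox6b1 each had one. Uqcr11, also among the highest, held the ETS motif.

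The mt- genes did not follow as one group. Their sum in erythroid-marker cells was 40810 CPM, against 41711 CPM in no gate, in KO, and 38906 CPM, against 39863 CPM, in WT. Behind this stood opposite shifts: mt- genes of complex I were higher in erythroid-marker cells (log2 ratio 0.39 in KO, 0.35 in WT) and those of complex IV lower (-0.25 in KO, -0.21 in WT). mt-Nd1 was higher (0.51 in both), while mt-Co1, the catalytic subunit of complex IV, was lower (-0.38 in KO, -0.31 in WT). Of the 7 complex I genes, mt-Nd6, which is read from the opposite strand of the mitochondrial genome, was the exception, at -0.35 in KO and -0.08 in WT.

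The other lineage gates fell on both sides of the cells in no gate. Megakaryocyte-marker cells (115 in KO, 150 in WT) were higher for the nuclear sum, with log2 ratios of 0.17 in KO and 0.16 in WT, and 68 of 77 members were higher in both libraries (41.6% of all genes). Granulocyte-monocyte-marker cells (201 in KO, 253 in WT) were higher by 0.16 in KO and 0.14 in WT, with 69 of 77 members higher in both (30.5% of all genes). Lymphoid-marker cells (175 in KO, 350 in WT) were lower, with -0.15 in KO and -0.17 in WT and 65 of 78 members lower in both (44.7% of all genes). Mast or basophil-marker cells (75 in KO, 82 in WT) had -0.18 in KO and -0.19 in WT, with 60 of 77 members lower in both (53.6% of all genes); against the median of all genes, their KO value turned to 0.061.

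Within these gates members past the filter were ranked by the mean of the log2 ratios of both libraries. Ndufv3, a small subunit of the NADH-oxidising part of complex I, ranked highest in megakaryocyte-marker cells, at 240 CPM against 172 CPM in no gate in KO (log2 ratio 0.48) and 228 CPM against 179 CPM in WT (0.35), where Cox6b2 stood higher (0.31 in KO, 0.50 in WT). Uqcrq, a small subunit of complex III, led in granulocyte-monocyte-marker cells (0.52 in KO, 0.39 in WT), followed by Atp5g1 (0.41 in KO, 0.39 in WT). In mast or basophil-marker cells Atp5f1, the stalk subunit b of ATP synthase, ranked highest (0.46 in KO, 0.63 in WT), although Ndufa6 stood higher in KO (0.49 in KO, 0.15 in WT), and Ndufa4 lowest (-0.91 in KO, -0.74 in WT). Ndufa12, an accessory subunit of complex I, was next lowest there (-0.80 in KO, -0.73 in WT).

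The contrast between mt- genes of complexes I and IV recurred. Where the nuclear sum was higher, mt- genes of complex I were higher and those of complex IV lower: in megakaryocyte-marker cells 0.079 and -0.25 in KO and 0.11 and -0.22 in WT, and in granulocyte-monocyte-marker cells 0.093 and -0.17 in KO and 0.096 and -0.13 in WT. Where the nuclear sum was lower the signs were turned: in lymphoid-marker cells -0.073 and 0.15 in KO and -0.065 and 0.19 in WT, and in mast or basophil-marker cells -0.096 and 0.26 in KO and -0.22 and 0.21 in WT. Set against the median of all genes these signs held in all 5 gates except for complex I in mast or basophil-marker cells of the KO library, which turned to 0.14. The ratio of nuclear to mt- sums was 0.497 in KO and 0.568 in WT in mast or basophil-marker cells and 0.521 in KO and 0.557 in WT in lymphoid-marker cells, the lowest of the gates. It was highest in erythroid-marker cells, at 0.830 in KO and 0.919 in WT, and was lower in KO in each of the 6 gates. Free RNA limits this difference, as droplets had 76972 CPM of mt- genes in KO and 42681 CPM in WT. Over all cells, the mt- sum in KO over WT was -0.078 after subtracting 10% free RNA, below the value of the nuclear sum. The part of free RNA in the ratios of the gates was not tested beyond that subtraction.

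**Figure D3:**
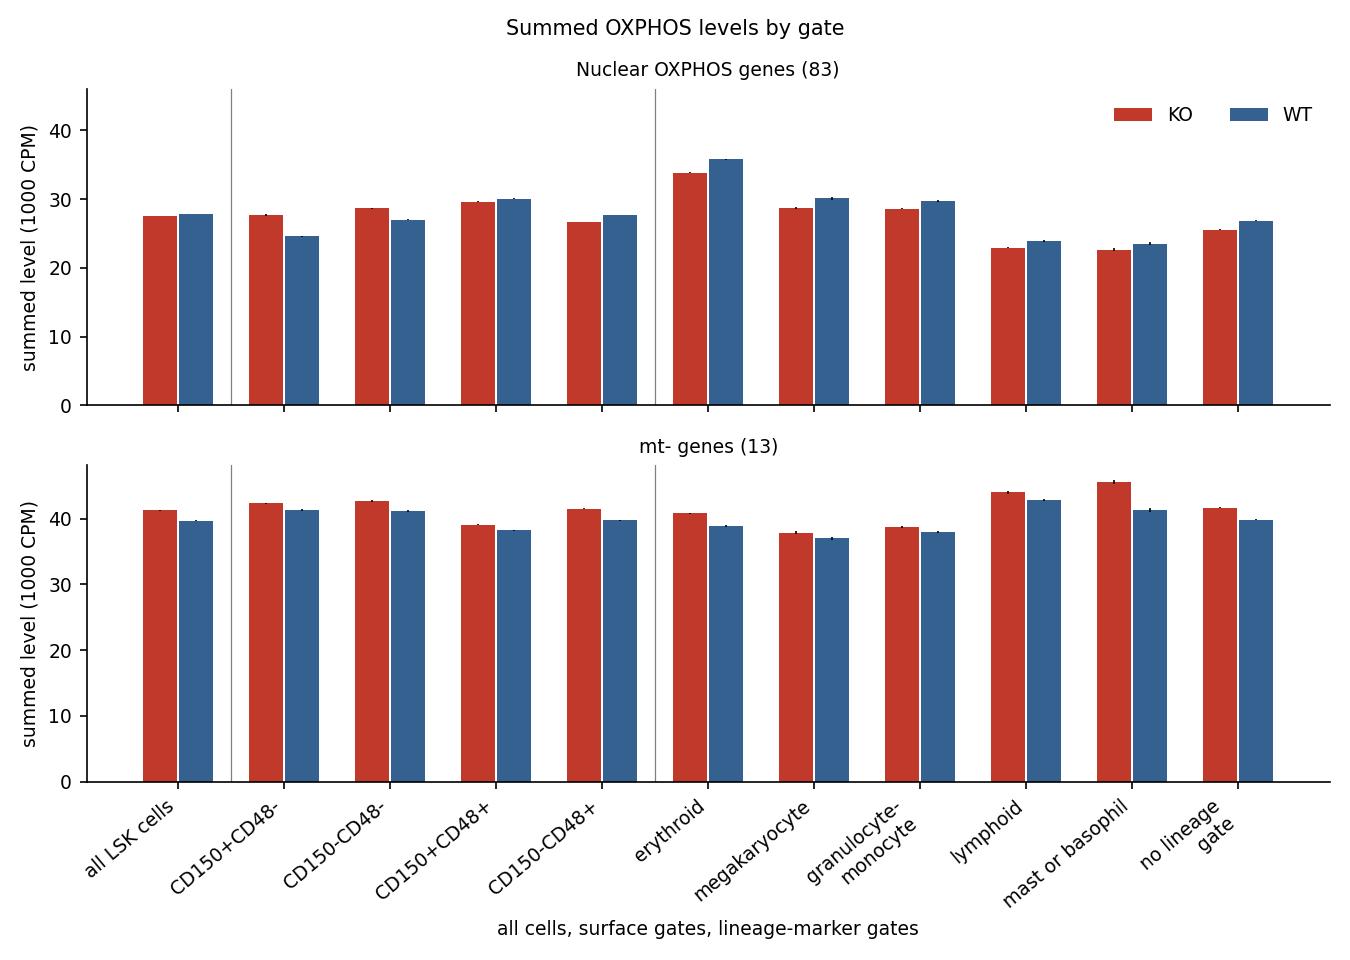
Summed CPM (axis in units of 1000 CPM) of the nuclear members (upper panel) and of the mt- genes (lower panel) in all LSK cells and in each surface and lineage gate, with KO left of WT; each bar is 1 library with its 95% counting interval. The nuclear sum is highest in erythroid-marker cells, at 33857 CPM in KO and 35754 CPM in WT, and lowest among the lineage gates in mast or basophil-marker cells, at 22619 CPM in KO and 23492 CPM in WT.

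Subunits with more than 1 gene shifted their balance between lineages. The ring subunit c of ATP synthase is made from Atp5g1, Atp5g2 and Atp5g3, which encode the same mature protein. Atp5g1 made up 47.8% of their UMIs in erythroid-marker cells of KO and 48.3% in WT, but 26.2% in lymphoid-marker cells of KO and 27.7% in WT. Atp5g2 took the reverse course, at 31.0% in KO and 30.2% in WT in erythroid-marker cells and 55.2% in KO and 52.7% in WT in lymphoid-marker cells. Atp5g3 stayed between 18.5% and 21.5% in every lineage gate of both libraries. Cox6b2 gave 22.5% of Cox6b UMIs in KO and 22.3% in WT in erythroid-marker cells, and 7.80% in KO and 6.54% in WT in lymphoid-marker cells. In CD150+CD48- cells its share was 23.1% in KO and 18.1% in WT, against 12.2% in KO and 10.3% in WT in CD150-CD48+ cells. Cox6b2 was thus a larger part of Cox6b in CD150+CD48- than in CD150-CD48+ cells, and in erythroid-marker than in lymphoid-marker cells. It was not particular to the stem gate. In CD150-CD48- cells Cox6b2 was at 149 CPM in KO and 131 CPM in WT, against 183 CPM and 117 CPM in CD150+CD48- cells. Erythroid-marker cells made up 23.3% of the CD150+CD48- cells in KO and 3.70% in WT.

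Cox6a2, the form known from heart and skeletal muscle, had its highest level among the gates in lymphoid-marker cells. It reached 39.9 CPM there in KO and 46.9 CPM in WT, against 4.35 CPM in KO and 3.68 CPM in WT in no gate, and made up 14.7% of Cox6a UMIs in KO and 18.1% in WT. By number of UMIs, 208 lay in lymphoid-marker cells and 266 in no gate in KO, and 341 and 388 in WT. In megakaryocyte-marker cells no Cox6a2 UMI was seen in either library. Cox7a2l was also highest among the gates in lymphoid-marker cells, at 445 CPM in KO and 522 CPM in WT.

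Ndufa4l2 was close to restricted to erythroid-marker cells. It stood there at 137 CPM in KO and 153 CPM in WT, with a UMI in 206 of 309 KO cells and 165 of 244 WT cells, whereas in no gate it had 2.27 CPM in KO and 1.96 CPM in WT. Lymphoid-marker cells held 1 UMI in KO and 0 in WT. Mast or basophil-marker cells of KO held 57 UMIs, 45 of them in 1 cell. Within erythroid-marker cells its KO over WT log2 ratio was -0.17, and the KO library had erythroid markers in 11.5% of its cells and the WT library in 4.57%.

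**Figure D4:**
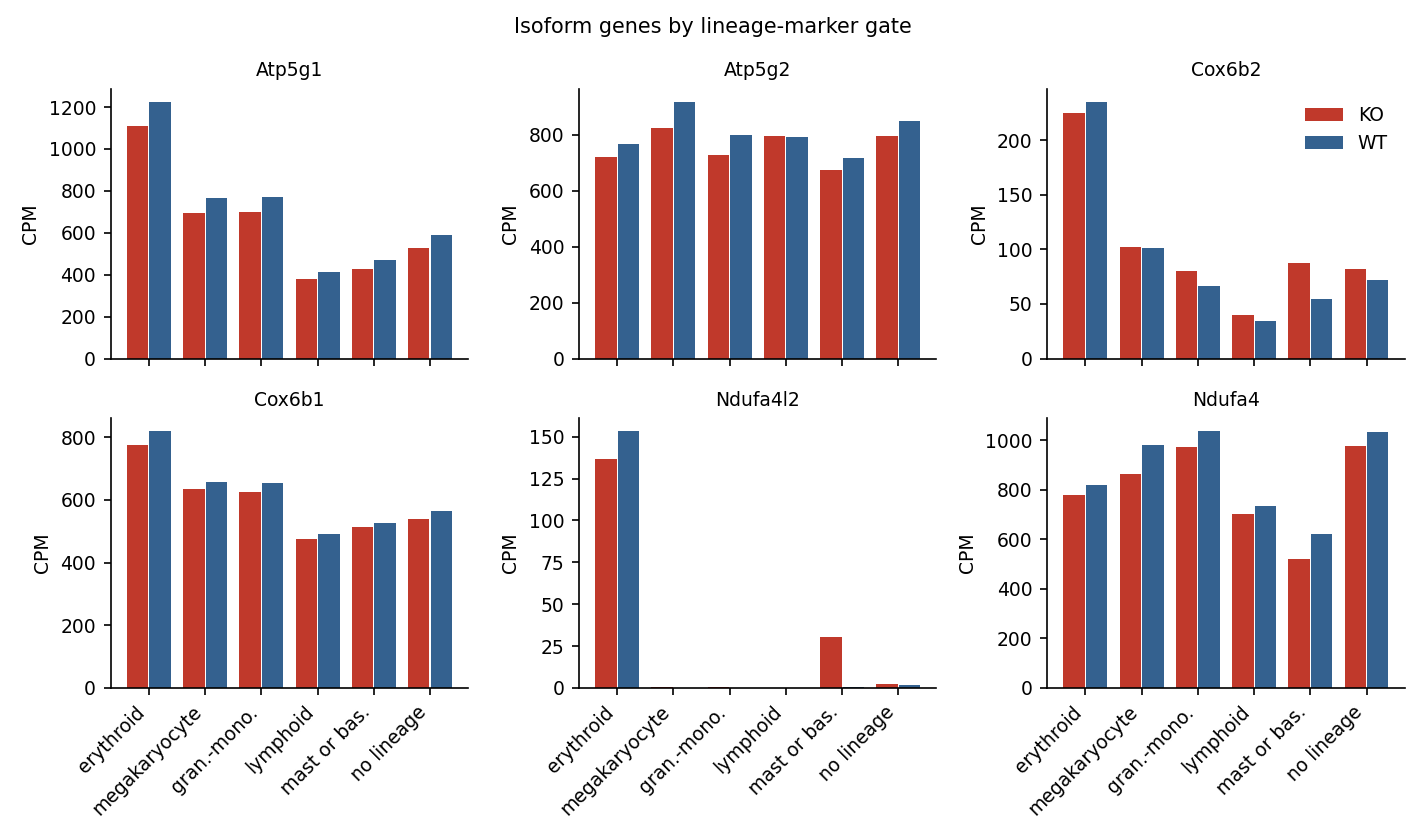
CPM of Atp5g1 and Atp5g2, of Cox6b2 and Cox6b1, and of Ndufa4l2 and Ndufa4 in the lineage gates, with KO left of WT; each bar is 1 library. Atp5g1 is at 1108 CPM in KO and 1225 CPM in WT in erythroid-marker cells and at 378 CPM in KO and 415 CPM in WT in lymphoid-marker cells.

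Between genotypes, the nuclear sum was slightly lower in KO within each of the 6 lineage gates, more than over all cells together. The log2 ratios were -0.079 in erythroid-marker, -0.071 in megakaryocyte-marker, -0.054 in granulocyte-monocyte-marker, -0.057 in lymphoid-marker and -0.055 in mast or basophil-marker cells, and -0.073 in no gate. They were negative in all 6 gates also against the median of all genes. Of 77 members measured in all gates, 35 were lower in KO in every gate (8.93% of 7503 genes) and 6 higher in every gate (18.9%). Gates share cells of 1 pool per genotype and are not replicates of it.

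By complex, the log2 ratios in the 6 gates lay between -0.10 and -0.043 for complex I, between -0.085 and -0.042 for complex III and between -0.087 and -0.049 for complex V. In erythroid-marker cells 64 of 78 members were lower in KO (34.0% of all genes), among them 33 of 38 for complex I, 7 of 8 for complex III and 14 of 17 for complex V. Complex IV lay between -0.054 and -0.015. For complex II, between -0.073 and -0.0091, 2 of its 4 members were higher and 2 lower in KO in each gate. The higher members were Sdha and Sdhc, except in mast or basophil-marker cells, where they were Sdhb and Sdhc. Against the median of all genes, complexes III and V were lower in KO in all 6 gates and complexes I, II and IV in 5, the exception being mast or basophil-marker cells, where they turned to 0.0014, 0.0081 and 0.029.

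Members lower in every gate included Ndufa13, whose log2 ratios lay between -0.37 and -0.23, Ndufb8 (-0.26 to -0.12) and Atp5g1 (-0.17 to -0.12). The 6 members higher in every gate, named after their values were seen, were Ndufa10, Sdhc, Cox6a1, Cox7b, Atp5mpl and Atp5md. Cox7b was the nearest to WT of them, between 0.0028 and 0.073, and Atp5mpl lay between 0.059 and 0.41. In no gate, 14 of 77 members were at least 10% lower in KO (9.11% of all genes) and 2 at least 10% higher (37.5%). In erythroid-marker cells 20 were at least 10% lower (12.3%) and 1 at least 10% higher (38.9%). The mt- sum was higher in KO in all 6 gates, by 0.028 to 0.14, but against the median of all genes in 1 gate only, mast or basophil-marker cells.

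Surface gates were drawn from the CD150 and CD48 antibody tags. CD150+CD48- cells, the phenotype in which long-term stem cells are found, numbered 288 in KO and 567 in WT, and CD150-CD48+ progenitors 1670 in KO and 3599 in WT. Stem cell marker transcripts (10 genes, among them Mecom, Hlf and Procr) summed to 880 CPM in KO and 1392 CPM in WT in CD150+CD48- cells, and to 395 CPM in KO and 413 CPM in WT in CD150-CD48+ cells. In the KO library the nuclear sum was 27688 CPM in CD150+CD48- cells and 26638 CPM in CD150-CD48+ cells (log2 ratio 0.056), while in the WT library it was 24595 CPM and 27714 CPM (-0.17). The KO library had 55 of 78 members higher in CD150+CD48- cells (63.4% of all genes) and the WT library 70 of 78 lower (33.0%). The KO direction was not stable: under 13 alternative treatments the KO value kept its sign in 5 and lay between -0.29 and 0.16, while the WT value stayed negative in all 13. KO over WT was 0.17 in CD150+CD48- cells, where 69 of 78 members were higher (49.6% of all genes), and -0.057 in CD150-CD48+ cells, where 61 of 79 were lower (31.6% of all genes). The other surface gates lay between: CD150-CD48- cells at 0.086, with 61 of 78 members higher (51.1% of all genes), and CD150+CD48+ cells at -0.021, with 47 of 78 lower (40.1%). In CD150+CD48- cells 44 members were at least 10% higher in KO (34.4%), spread over all complexes, with complex IV at 0.22, complex II at 0.21, complex III at 0.20, complex V at 0.16 and complex I at 0.14.

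The make-up of the CD150+CD48- gate differed between the libraries. It held 67 erythroid-marker cells in KO (23.3%) and 21 in WT (3.70%), and 18 megakaryocyte-marker cells in KO (6.25%) and 11 in WT (1.94%). In cells of no lineage gate, a restriction chosen after seeing the data, both libraries gave the same direction. The nuclear sum there was 21352 CPM in CD150+CD48- cells and 26020 CPM in CD150-CD48+ cells in KO (log2 ratio -0.29), and 22900 CPM and 27515 CPM in WT (-0.26). Of 77 members, 70 were lower in CD150+CD48- cells in both libraries (27.6% of all genes). All 17 members of complex V were among the 70, with 34 of 37 of complex I, 7 of 8 of complex III, 9 of 11 of complex IV and 3 of 4 of complex II. CD150+CD48- cells were shallower in this subset, with medians of 21441 UMIs in KO and 15291.5 in WT, against 34288 in KO and 24266 in WT in CD150-CD48+ cells. KO over WT in CD150+CD48- cells of no lineage gate was -0.10, with 67 of 77 members lower (36.8% of all genes). In all 4 surface gates of this subset 37 of 77 members were lower in KO (13.7% of all genes) and 6 higher (33.6%). Those 6, named after their values were seen, were Ndufa10, Sdha, Cox6a1, Cox6b2, Cox7b and Atp5mpl. Cox6b2 lay between 0.16 and 0.28 and Sdha between 0.12 and 0.21 over these gates.

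**Figure D5:**
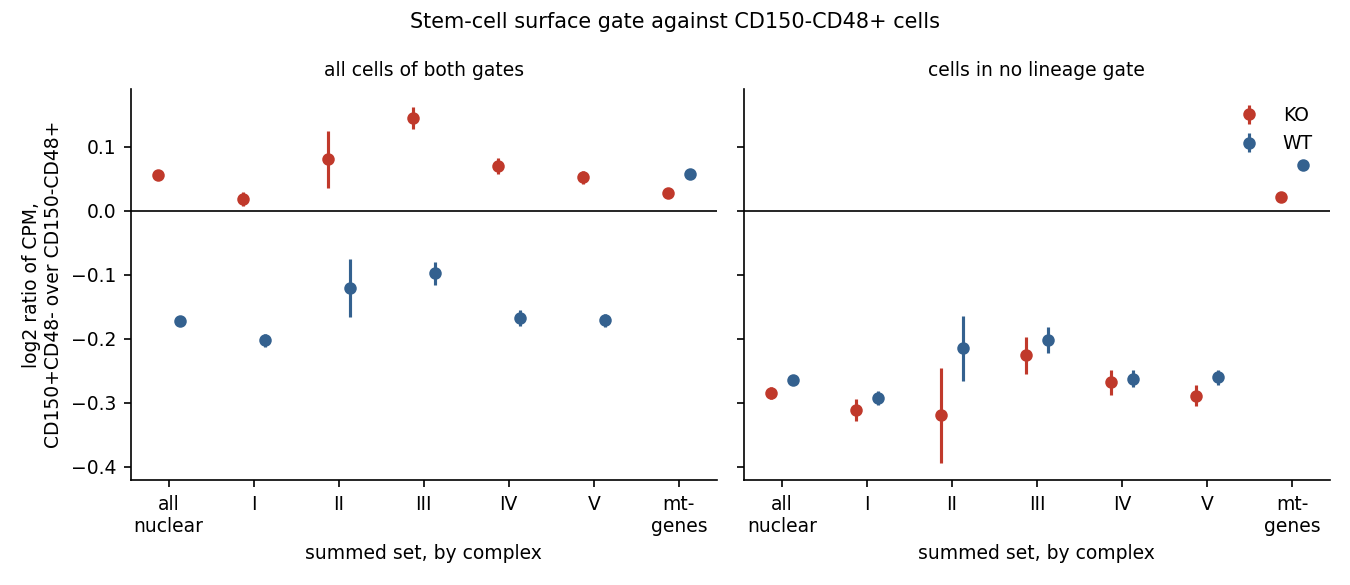
Log2 ratio of summed CPM in CD150+CD48- over CD150-CD48+ cells, by complex, with KO and WT side by side, with 95% counting intervals, for all cells (left) and for cells of no lineage gate (right). In all cells the 5 nuclear complexes lie above 0 in KO and below 0 in WT, with complex V at 0.053 in KO and -0.17 in WT, although against the median of all genes complexes I, II, IV and V turn negative in KO; in cells of no lineage gate all lie below 0, with complex V at -0.29 in KO and -0.26 in WT.

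Among stem-gate cells of no lineage gate the members lowest relative to CD150-CD48+ cells were Ndufa4, at 593 CPM against 1062 CPM in KO (log2 ratio -0.84) and 648 CPM against 1126 CPM in WT (-0.80), and Cox5a, a nuclear subunit of complex IV (-0.73 in KO, -0.66 in WT). Uqcrq (-0.65 in KO, -0.58 in WT) followed. Cox6b2 and Cox7a2l were among the members that ran the other way, with Cox6b2 higher by 0.83 in KO and 0.74 in WT and Cox7a2l by 0.45 in KO and 0.30 in WT. mt- genes of complex I were lower in these cells (-0.23 in KO, -0.16 in WT) and those of complex IV higher (0.099 in KO, 0.14 in WT), though for complex IV the values turned to -0.082 in KO and -0.032 in WT against the median of all genes.

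Within CD150+CD48- cells, those above the median for the CD201 tag, a surface marker of stem cells, had a lower nuclear sum than those below it. The log2 ratio was -0.12 in KO and -0.30 in WT, and 66 of 78 members were lower in both libraries (24.1% of all genes), including all 17 of complex V and all 8 of complex III. Cox7a2l was again higher, at 346 CPM against 282 CPM in KO (log2 ratio 0.29) and 499 CPM against 358 CPM in WT (0.48). The CD201 split took all CD150+CD48- cells, of which 23.3% in KO and 3.70% in WT were erythroid-marker cells. The lineage mix and depth of the cells above and below the CD201 median are not given here, and their part in these values was not tested.

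Cells low for cell cycle transcripts made up 31.8% of the KO library and 38.9% of the WT library. Their nuclear sum was 23426 CPM, against 28507 CPM in the other cells, in KO (log2 ratio -0.28), and 24305 CPM, against 28993 CPM, in WT (-0.25). Of 79 members, 73 were lower in both libraries (38.3% of all genes) and 65 at least 10% lower in both (27.3%). Complex II was the farthest below, at -0.35 in KO and -0.32 in WT, and complex I the nearest in KO, at -0.26, with -0.24 in WT; all 4 members of complex II and all 17 of complex V were lower in both libraries. Atp5g1 was lower by more than most, at 415 CPM against 721 CPM in KO (-0.80) and 442 CPM against 731 CPM in WT (-0.73). Cox7a2l was higher, at 417 CPM against 273 CPM in KO and 482 CPM against 315 CPM in WT (0.61 in both). Here too mt- genes of complex I were lower (-0.17 in both) and those of complex IV higher (0.28 in KO, 0.27 in WT). The depth and lineage mix of the cells low for cycle genes are not given here. As the nuclear share also rose with depth (below), the part of depth in these values was not tested.

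Single cells spread widely around these sums. With each cell thinned to 8000 UMIs, the nuclear genes had a median of 201 UMIs in KO and 207 in WT, with a 10th to 90th percentile range of 147 to 272 in KO and 158 to 270 in WT. The SD over cells was 48.6 UMIs in KO and 44.0 in WT, against 14.3 and 14.5 from counting alone in the same libraries. Across cells the thinned nuclear count went with the cell's own depth (Spearman rho 0.54 over 2676 KO cells and 0.55 over 5345 WT cells) and weakly against the mt- count (rho -0.14 in KO and -0.24 in WT). Cells of 1 library share depth, free RNA and lineage mix, so these are descriptions. The nuclear share was higher in deep than in shallow cells of both libraries. In cells below 15000 UMIs the nuclear sum was 21987 CPM in KO and 22292 CPM in WT, in cells of 20000 to 30000 UMIs 23024 CPM in KO and 26826 CPM in WT, and in cells of 60000 UMIs or more 31883 CPM in KO and 31850 CPM in WT. Between these ends KO cells were lower than WT cells of the same depth. A UMI count reflects both RNA per cell and sequencing depth, and these cannot be told apart here.

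Other lists of mitochondrial genes were set against the same shares of all genes over all LSK cells, 65.0% higher and 33.0% at least 10% higher in KO. Of 17 citric acid cycle genes, 13 were higher (76.5%) and 4 lower in KO, 10 of them at least 10% higher, with a median log2 ratio of 0.17. Dlst, a subunit of the 2-oxoglutarate dehydrogenase complex, was at 47.6 CPM in KO and 35.6 CPM in WT (log2 ratio 0.42), and Idh2, mitochondrial isocitrate dehydrogenase, went the other way, at 184 CPM in KO and 220 CPM in WT (-0.26). Of 36 assembly factors 19 were higher (52.8%) and 17 lower, with a median of 0.012, 8 at least 10% higher and 1 at least 10% lower, with Timmdc1, an assembly factor of complex I, at 13.8 CPM in KO and 8.93 CPM in WT (0.63). Of 18 regulators, 17 passed the filter, 13 were higher (76.5%) and 6 at least 10% higher, with a median of 0.094, among them Gabpa, a subunit of GABP, at 27.6 CPM in KO and 22.6 CPM in WT (0.29), and Nrf1 at 25.5 CPM in KO and 22.8 CPM in WT (0.16). Mitochondrial ribosomal protein genes were even, with 39 of 78 higher and 39 lower and a median of 0.0020. Of the subunits outside the naming pattern, 6 of 7 were measured, and Cox4i2, the form of Cox4 known from lung and low oxygen, was at 16.5 CPM in KO and 24.2 CPM in WT (-0.55), against -0.087 for the common form Cox4i1.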

How the data were processed

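Single-cell RNA and antibody-tag libraries of E17.5 fetal liver LSK cells were analysed, 1 per genotype, from the deposited matrices of raw UMI counts per barcode, which the authors made with Cell Ranger 4 per the file headers. The submitters' processing notes name Cell Ranger 4.0.6, mm10, Seurat and DESeq without steps or roles. The submitted matrices held 2456731 barcodes in KO and 2395014 in WT. Cells were barcodes with at least 10% of the 99th percentile of UMIs of the top 6000 barcodes (9992 in KO, 8178 in WT), 500 genes and at most 10% mitochondrial UMIs. That mitochondrial limit bounds mt- values from above and removed 18 KO and 21 WT barcodes. Scrublet called 7 KO and 0 WT doublets, too few to have worked, so doublets largely remain.

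UMIs were summed per library and gate and divided by the gene UMIs to give CPM. Log2 ratios carry exact conditional binomial 95% intervals, which cover counting error only. Counts of members use genes of at least 5 CPM on average over the groups compared, and the shares over all genes use the same filter. CD150 and CD48 gates came from centred log ratios of the 6 tags, cut per library by Otsu's threshold, and CD201 was split at the median of its gate. Lineage and cycle scores were mean log2(1 + count) of marker genes after thinning each cell to 8000 UMIs, standardised over both libraries, and cells below the mean for both S and G2/M genes were called low for cycle genes. Named members were the 2 most abundant, 2 highest and 2 lowest of each complex, the 3 highest and 3 lowest of each gate contrast, and paralogue sets; all mt- genes could be named, and members outside these are said to be so. Members, lists and gates were chosen with earlier results of these data known. The script for ratios was checked on simulated counts. No test was run, since each genotype has 1 library. Python 3.11.15, numpy 2.4.6, scipy 1.17.1, pandas 2.3.3, scanpy 1.11.5 and matplotlib 3.10.9 were used. The results were recomputed under 16 other treatments of the data and under 2 more chosen after seeing the data.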

Additional observations from a re-analysis of the deposited data

Results flagged for a closer look

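The nuclear sum in KO over WT had opposite signs in the surface gates at either end, with a log2 ratio of 0.17 in CD150+CD48- cells and -0.057 in CD150-CD48+ cells. This is the same set of values as the opposite signs of CD150+CD48- over CD150-CD48+ cells, 0.056 in the KO library and -0.17 in the WT library. The difference was not tested, since each genotype is 1 library. Erythroid-marker cells made up 23.3% of the CD150+CD48- gate in KO and 3.70% in WT, and without cells of any lineage gate the stem-gate ratio was -0.29 in KO and -0.26 in WT.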

How the results depend on the processing

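Log2 ratios below are of the nuclear sum and then the mt- sum in KO over WT (-0.015 and 0.054 as reported), of both sums in CD150+CD48- over CD150-CD48+ cells, and of the nuclear sum in erythroid-marker cells over cells of no gate. Scaling by the median of all genes (0.067 in KO over WT) gave -0.082 and -0.012, with 3 members at least 10% higher and 21 at least 10% lower (21.8% of all genes). With it the stem-gate ratio was -0.034 in KO and -0.32 in WT (mt- -0.062 in KO, -0.091 in WT) and the erythroid ratio 0.56 in KO and 0.57 in WT. A mitochondrial limit of 5% gave -0.019 and 0.021, a stem-gate ratio of -0.0037 in KO and -0.16 in WT (mt- -0.057 in KO, 0.037 in WT) and an erythroid ratio of 0.39 in KO and 0.40 in WT. A limit of 20% moved the mt- ratio to 0.053. A UMI minimum 2 times as high gave -0.030 and 0.072 with 8 members lower (11.4% of all genes), a stem-gate ratio of 0.12 in KO and -0.087 in WT (mt- 0.046 in KO, 0.022 in WT) and an erythroid ratio of 0.40 in KO and 0.38 in WT. Subtracting 10% free RNA gave -0.045 and -0.078 with 11 members lower (13.9%), a stem-gate ratio of 0.063 in KO and -0.19 in WT (mt- 0.034 in KO, 0.066 in WT) and an erythroid ratio of 0.45 in KO and 0.44 in WT. Thinning cells to 8000 UMIs gave -0.036 and 0.034 with 7 members lower (12.3%), a stem-gate ratio of -0.10 in KO and -0.21 in WT (mt- -0.019 in KO, 0.052 in WT) and an erythroid ratio of 0.41 in KO and 0.43 in WT. The mean of cells' own CPM gave -0.036 and 0.035, a stem-gate ratio of -0.10 in KO and -0.21 in WT (mt- -0.021 in KO, 0.052 in WT) and a WT erythroid ratio of 0.44.

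Without the cells of highest doublet score the mt- ratio was 0.045, the WT stem-gate ratio -0.18, the KO mt- stem-gate ratio 0.036 and the erythroid ratio 0.41 in KO and 0.43 in WT. Cells low for cycle genes gave -0.053 and 0.062 with 8 members lower (10.9%), a stem-gate ratio of -0.19 in KO and -0.18 in WT (mt- -0.068 in KO, 0.0026 in WT) and an erythroid ratio of 0.48 in KO and 0.47 in WT. Weighting KO gates to WT shares gave -0.071 and 0.061, with 1 member higher and 11 lower (8.59%). One surface cut over both libraries gave a stem-gate ratio of -0.021 in KO and -0.15 in WT (mt- 0.045 in KO, 0.052 in WT), and the outer 30% of each tag 0.16 in KO and -0.044 in WT (mt- 0.021 in KO, 0.018 in WT). A lineage score of at least 1 SD gave an erythroid ratio of 0.39 in both libraries, and of at least 2 SD 0.39 in KO. Without the filter on low values 8 members were higher and 5 lower (22.8%), and at 20 CPM or more 7 and 3 (11.0%). Cells of no lineage gate gave -0.073 and 0.065, with 2 members higher and 14 lower (9.11%), and a stem-gate ratio of -0.29 in KO and -0.26 in WT (mt- 0.021 in KO, 0.072 in WT). Cells of 20000 to 40000 UMIs gave -0.178 and 0.104, with 2 members higher and 51 lower (15.9%), a stem-gate ratio of -0.17 in KO (mt- -0.019 in KO, -0.023 in WT) and an erythroid ratio of 0.28 in KO and 0.23 in WT.

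Among values at least 10% from 1, the sign turned for the mast or basophil-marker ratio of KO with scaling by the median of all genes (0.061), for Ndufa4l2 with WT gate shares (-0.079), and in cells of 20000 to 40000 UMIs for Cox6a1 (-0.084), Cox7a2l (0.097) and Ndufs1 (-0.016). Of 682 values other than those above, 92 turned sign, these 5 and 87 whose value as reported lay within 10%, and 270 moved by less than counting error. Of the 92, 22 fell in cells of 20000 to 40000 UMIs, where Atp5a1 was -0.056, Uqcrfs1 -0.073, Sdhc -0.023 and the sums of complexes II, III and IV -0.12, -0.16 and -0.14. The cause was not tested. Weighting KO gates to WT shares is a recomputation and not a test of gate shares as a cause. The nuclear sum in KO over WT was negative under every alternative run, and the erythroid ratio positive. No library could be left out, and no paired analysis was possible because each genotype has 1 library and the labels carry no pairing.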
